A study of Mus musculus with 2 samples.

Results

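Late differentiating spermatogonia are the last mitotic germ cells before meiosis. Here they are the cells of the testis in which transcripts of Esx1, an X-linked homeobox gene, or of Dmrtb1, a DM-domain transcription factor, were counted. A cell barcode was a member if it held at least 1000 UMIs (unique molecular identifiers, counts of captured RNA molecules), at least 500 genes and at most 20% mitochondrial UMIs, had at least 3 UMIs of the germ cell genes Ddx4 and Dazl together, and at least 2 UMIs of Esx1 and Dmrtb1 together. Per 10000 UMIs it also had to hold fewer than 10 of Stra8, fewer than 20 of Sycp1 and fewer than 10 of the Sertoli cell genes Aard, Cst9, Cst12 and Sox9 together. The rule was met by 1356 of 22096 cells. Of these, 17 were among the 10864 cells of the knockout library and 1339 among the 11232 cells of the control library.

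Whole testis was profiled at 13 days of age in C57BL/6 males, with 1 10x 3′ V3 library for each genotype. The conditional knockout had the genotype Psma7 F/-;Stra8-Cre KI/+, a floxed and a deleted copy of Psma7 together with a Cre knocked in at Stra8, a gene that germ cells switch on as they differentiate. The control had the genotype Psma7 F/+, a floxed and a wild-type copy, and its label lists no Cre. Psma7 encodes the α4 subunit of the 20S proteasome core. The number of animals behind each library is not given in the sources used here, so the values are descriptions of these libraries without replicates, and no test between them was run. The 95% intervals reflect only the counting of UMIs or, for shares of cells, of cells.

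Spermatogonia start as undifferentiated cells that express ZBTB16 and GFRA1, and retinoic acid then drives them into differentiation, when they switch on the receptor KIT. After a fixed run of mitoses a further response to retinoic acid raises STRA8, and with its partner MEIOSIN (Gm4969) it turns on meiotic genes, after which the synaptonemal complex protein SYCP1 accumulates in prophase. In mice, DMRTB1 (DMRT6) is known from mutants to be needed for the orderly passage from mitosis to meiosis, while DMRT1 restrains meiotic entry.

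The summed RNA of the 1339 control members is set against that of earlier and later control germ cells, sorted by the same kind of rule. Undifferentiated cells (325) had no UMI of Kit, Esx1 or Dmrtb1 and at least 2 UMIs of Gfra1, Zbtb16, Etv5, Nanos3 and Ret together. Early KIT-positive cells (308) had at least 2 UMIs of Kit and none of Esx1 or Dmrtb1. STRA8-high cells (471) reached the Stra8 limit but not that of Sycp1, and SYCP1-high cells (268) reached the Sycp1 limit but not that of Stra8. A further 882 germ cells met none of these rules, and 18 reached both limits. A level is given in CPM, the UMIs of a gene per 1000000 UMIs of the class.

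The libraries held 112746953 UMIs (knockout) and 146528736 UMIs (control), and 29 cell barcodes occurred in both. Median depth was 5482 UMIs per knockout cell and 8372.5 UMIs per control cell. Members were deeper, with medians of 34423 UMIs in the knockout library and 15549 UMIs in the control library. The control comparison classes had medians of 12787 UMIs (undifferentiated), 18393 UMIs (early KIT-positive), 14219 UMIs (STRA8-high) and 14323 UMIs (SYCP1-high). Doublets were scored and kept, as the rule has no doublet step, and Scrublet marked 0 of the knockout members and 93 (6.95%) of the control members. Psma7 stood at 78.2 CPM in the knockout members (40 UMIs) and 274 CPM in the control members. Which exons are floxed is not given in the sources used here, so a 3′ count does not check the deletion.

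Members made up 5.12% of the 332 knockout germ cells (95% Clopper-Pearson interval 3.01% to 8.07%) and 37.1% of the 3611 control germ cells (35.5% to 38.7%). A deeper cell passes a 2-UMI minimum more easily. With at least 3 UMIs required, 5 knockout cells (1.51% of germ cells) were left, and 27.7% of control germ cells. With every cell thinned to 5000 UMIs before the rule, 2 knockout cells (0.885%) and 553 control cells (19.1%) were left. The knockout share was below the control share under each of these settings.

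Esx1 (X:137115397-137122083, minus strand, mm10 coordinates in GENCODE M21) and Dmrtb1 (4:107676290-107684230, minus strand) chose the members, so their levels are a description. Across the stages in order, Esx1 stood at 0, 0, 260, 189 and 64.9 CPM, and Dmrtb1 at 0, 0, 76.9, 10.2 and 6.2 CPM. The zeros of the first pair of stages come from the rule. Esx1 was thus still counted at a high level in STRA8-high cells, where Dmrtb1 was low. Both genes together gave a median of 4 UMIs per control member and at most 72. In a control member, Esx1 alone was counted in 474 cells (35.4%), both genes in 790 (59.0%) and Dmrtb1 alone in 75 (5.60%).

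Of the marker genes that the rule did not use, each was higher in members than in early KIT-positive cells. Prss50, a testis serine protease gene (9:110857967-110864629, plus strand), stood at 12.5 CPM in undifferentiated, 15.4 in early KIT-positive, 195 in member, 539 in STRA8-high and 601 in SYCP1-high cells. Its log2 ratio of members over early KIT-positive cells was 3.66 (3.38 to 3.97), and over STRA8-high cells it was -1.46 (-1.52 to -1.40). From the early KIT-positive cells on, Prss50 was thus higher at each stage than at the one before. Ccnd1, cyclin D1, which drives the G1 phase (7:144929931-144939925, minus strand), had a peak instead: 49.5, 79.0, 207, 65.9 and 11.01 CPM in the same order. Tex11, an X-linked meiotic recombination gene (X:100838648-101059667, minus strand), stood at 141, 165, 358, 378 and 315 CPM, lower before the members than in them or after them. So in the control library the label held against earlier cells on these markers, which are independent of the rule. Against STRA8-high cells it held on Ccnd1 only, as Prss50 and Tex11 were higher in STRA8-high cells than in members.

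Counted per cell after thinning to 5000 UMIs, Prss50 was detected in 44.5% of 1269 control members (64.8% unthinned), against 1.81% of 1103 control Sertoli cells (3.10% unthinned), a cell type that should lack it. Ccnd1 was detected in 59.2% of members (84.0% unthinned) and 2.18% of Sertoli cells (3.34% unthinned), and Tex11 in 76.6% (92.9%) and 2.81% (3.67%). Before thinning, the members had a median of 15549 UMIs and the Sertoli cells of 4613 UMIs. In early KIT-positive cells the thinned shares were 4.95% for Prss50, 28.7% for Ccnd1 and 51.2% for Tex11, and the share of Prss50 was the closest of these to its Sertoli value.

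**Figure D1:**
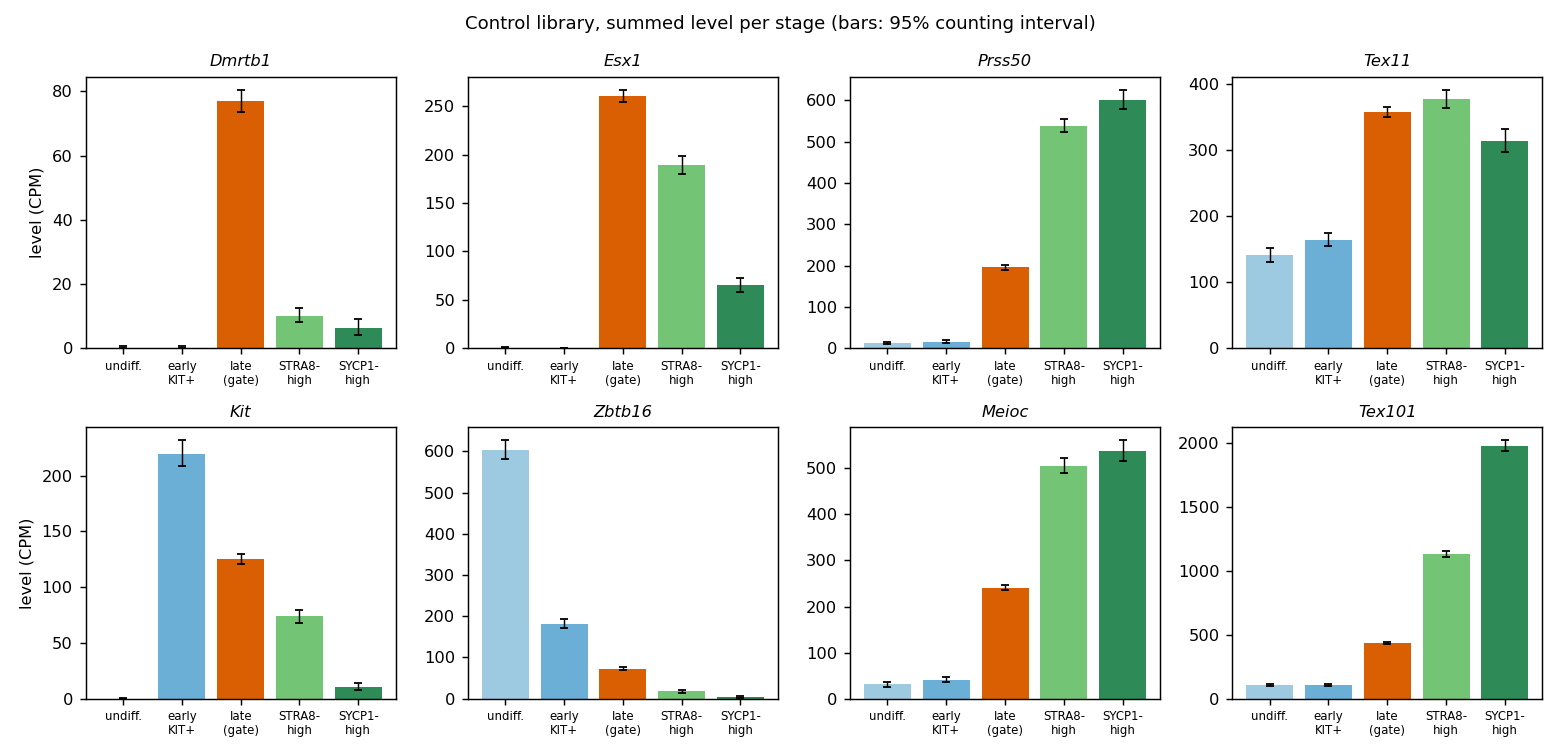
Levels in CPM (linear axes from 0) of 8 genes over the summed cells of 5 control stages, with 95% Poisson intervals for counting error. Dmrtb1 and Esx1 are at 0 before the members by the rule; Prss50, Tex11, Meioc and Tex101 are higher in members than in early KIT-positive cells, while Kit and Zbtb16 are lower.

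Edges of the rule lay on a continuum. Members with exactly 2 UMIs of Esx1 and Dmrtb1 (339 cells) had Prss50 at 167 CPM and Tex11 at 266 CPM, and germ cells with 1 UMI that met the other limits (535 cells) had 142 and 220 CPM. At the Stra8 limit, members with 5 to 10 per 10000 (287 cells) had Prss50 at 361 CPM and Kit at 98.2 CPM, and cells outside with 10 to 15 (164 cells) had 544 and 65.5 CPM. At the Sycp1 limit, members with 15 to 20 (74 cells) had Sycp3 at 1840 CPM, and cells outside with 20 to 25 (29 cells) had 2501 CPM.

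Markers of other cell types were counted in members, with none of those lists' genes at 0, and 75 control members (5.60%) held 10 or more per 10000 UMIs of Leydig, peritubular myoid, stromal, endothelial and macrophage markers together. Scrublet marked 73.3% of these 75 cells. The 8 stromal markers summed to 6737 CPM in them and to 73.8 CPM in the other 1264 members. Summed stromal levels were 595 CPM in all members, 404 CPM in early KIT-positive cells and 134 CPM in STRA8-high cells, and the 6 endothelial markers summed to 49.7, 135 and 32.7 CPM in that order. Sertoli markers stood at 372, 383 and 326 CPM, against 11851 CPM in Sertoli cells, and macrophage markers at 15.8, 10.3 and 10.3 CPM. Myoid markers (132, 145 and 25.1 CPM) and Leydig markers (72.8, 91.9 and 17.9 CPM) were lower in STRA8-high cells as well. For some named genes that moved with these lists, values without those cells are given below. Such values are not given for every named gene.

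Promoters are shown for the 2 genes of the rule and for Prss50 and Meioc, because Prss50 and Meioc were higher in members than before them and higher still after them. Each is the 250 bases before the annotated transcript start in RefSeq, build GRCm38.p6, 5′ to 3′ on the gene's strand. Capitals mark matches on either strand to CNCCTCAG, a motif reported for STRA8, and to TCCCGC, a core of E2F motifs; the end of TCCCGC can form the start of CNCCTCAG.
Esx1, chrX:137120327-137120576, minus strand: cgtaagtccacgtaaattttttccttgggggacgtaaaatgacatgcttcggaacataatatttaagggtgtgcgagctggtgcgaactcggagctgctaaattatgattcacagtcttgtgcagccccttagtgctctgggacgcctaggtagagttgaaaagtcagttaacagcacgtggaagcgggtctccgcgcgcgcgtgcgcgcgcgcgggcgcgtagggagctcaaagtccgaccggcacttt
Dmrtb1, chr4:107684231-107684480, minus strand: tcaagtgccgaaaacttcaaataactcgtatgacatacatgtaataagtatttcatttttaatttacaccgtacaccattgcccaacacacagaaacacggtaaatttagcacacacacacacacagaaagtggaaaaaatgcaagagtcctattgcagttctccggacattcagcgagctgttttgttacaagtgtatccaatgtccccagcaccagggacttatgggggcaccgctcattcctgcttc
Prss50, chr9:110857717-110857966, plus strand: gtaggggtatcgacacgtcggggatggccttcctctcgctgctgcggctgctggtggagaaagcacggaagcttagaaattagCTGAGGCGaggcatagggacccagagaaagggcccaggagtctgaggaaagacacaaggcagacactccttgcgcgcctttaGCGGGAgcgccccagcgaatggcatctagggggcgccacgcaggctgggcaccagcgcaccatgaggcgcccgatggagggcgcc
Meioc, chr11:102665335-102665584, plus strand: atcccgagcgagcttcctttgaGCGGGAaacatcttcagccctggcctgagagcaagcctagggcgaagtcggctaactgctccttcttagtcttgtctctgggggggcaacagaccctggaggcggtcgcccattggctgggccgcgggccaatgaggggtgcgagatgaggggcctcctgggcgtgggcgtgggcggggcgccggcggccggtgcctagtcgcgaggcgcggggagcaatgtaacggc

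The Esx1 window lies inside the GENCODE span of Esx1 given above, so it does not cover the bases before the GENCODE start. The window of E2f2, a gene highest in members, holds CNCCTCAG and is not shown. Neither motif is in the Esx1 or Dmrtb1 window, nor in that of Tex101, whose levels ran like those of Prss50 and Meioc. Prss50 holds both, as the reverse complements CTGAGGCG and GCGGGA, and Meioc holds the E2F core. Of 372 genes at least 2-fold lower in members than in STRA8-high cells, 67 windows held CNCCTCAG (18.0%), and of 442 at least 2-fold higher than in early KIT-positive cells, 46 did (10.4%). Over all genes measured in both neighbour comparisons it was in 1037 of 11804 windows (8.79%), and over all windows of the table in 7.39% of 27025. TCCCGC was in 32.5% of those 372 windows and in 33.5% of the 11804. These are counts of letters in a window, not of binding.

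Against early KIT-positive cells, the members had lower levels of undifferentiated genes and higher levels of meiotic and mitotic genes. The median log2 ratio over all 16333 measured genes (at least 30 UMIs over both classes) was -0.21, with 617 genes at least 2-fold higher (3.78%) and 2849 at least 2-fold lower (17.4%). With ratios centred on that median, 1001 were higher and 2064 lower. Against STRA8-high cells the median over 15824 genes was 0.38, with 3889 higher (24.6%) and 559 lower (3.53%), or 2309 and 1439 after centring. A list's ratios are best read against these medians. With that centring, list medians change sign over early KIT-positive cells for DNA methylation, p53 and apoptosis and the Sertoli markers, and over STRA8-high cells for early differentiation, the retinoic acid pathway, the 20S proteasome and oxidative phosphorylation.

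**Figure D2:**
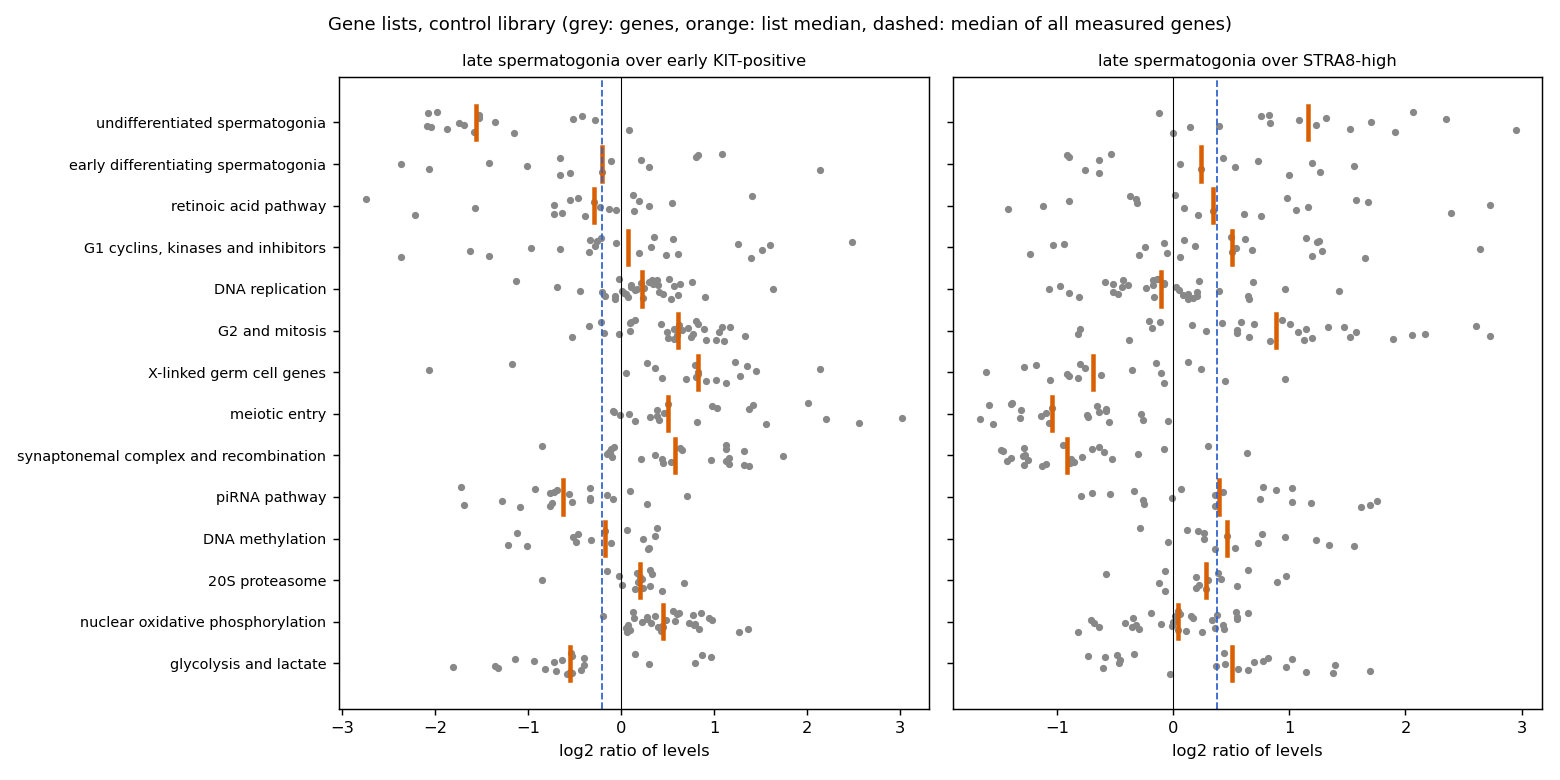
Log2 ratios of CPM for the genes (grey) of 14 lists, members over early KIT-positive cells on the left and over STRA8-high cells on the right, with list medians in orange and the median of all measured genes dashed. Meiotic lists lie above that line on the left and below it on the right; undifferentiated genes do the reverse.

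Of 16 measured genes of undifferentiated spermatogonia, 12 were at least 2-fold lower in members than in early KIT-positive cells and 0 higher (median -1.56). Zbtb16, a transcription factor of undifferentiated cells that helped to choose that class, stood at 604, 182, 72.7, 17.5 and 4.4 CPM across the stages, and Sall4, its zinc-finger partner, at 117, 109, 37.6, 15.02 and 2.8 CPM. Upp1, uridine phosphorylase, and Pou5f1, a pluripotency factor, had log2 ratios of -2.09 and -2.08 over early KIT-positive cells. Against STRA8-high cells the list stood higher in members, with 9 of 16 at least 2-fold higher and 0 lower (median 1.16), among them the RNA-binding pluripotency factor Lin28a at 2.35. So members lay between their neighbours.

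Early differentiation genes were mixed: of 15 measured, 2 were 2-fold higher and 4 lower than in early KIT-positive cells (median -0.21). Against STRA8-high cells, 3 were higher and 0 lower (median 0.24). Over all measured genes, 3.78% were 2-fold higher and 17.4% lower than in early KIT-positive cells, and 24.6% were higher than in STRA8-high cells. Ccnd2, cyclin D2, had the lowest ratio over early KIT-positive cells at -2.37, and Rhox13, an X-linked homeobox gene, the highest at 2.14. Dmrt1 stood at 347 CPM in members, against 400 CPM in early KIT-positive and 144 CPM in STRA8-high cells. Kit, which chose the early KIT-positive cells, was 125 CPM in members, 220 CPM in those cells and 73.8 CPM in STRA8-high cells. Dnmt3b, a de novo DNA methyltransferase, was 58.4 CPM in members, 118 CPM in early KIT-positive and 19.7 CPM in STRA8-high cells.

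Genes of meiotic entry stood between their neighbours. Of 21 measured, 8 were at least 2-fold higher than in early KIT-positive cells and 0 lower (median 0.50), and 0 were higher and 11 lower than in STRA8-high cells (median -1.05). Meioc, which acts with the RNA-binding protein YTHDC2 in the passage to meiosis, stood at 31.2, 41.0, 241, 506 and 539 CPM across the stages. Tex101, a germ cell surface protein, stood at 107, 108, 434, 1134 and 1982 CPM. Dpep3, a dipeptidase, had a ratio of 3.02 over early KIT-positive cells and -1.32 over STRA8-high cells, Prdm9, which marks recombination sites, 2.20 and -1.67, and Gm4969, MEIOSIN, 1.56 and -1.55. These 5 genes were thus above early KIT-positive levels in the summed members. The rule sets only an upper limit on Stra8, so members can include cells past its rise. How far such cells account for these levels was not tested.

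Of 24 measured genes of the synaptonemal complex and recombination, 9 were at least 2-fold higher than in early KIT-positive cells and 0 lower (median 0.58), and 0 higher and 11 lower than in STRA8-high cells (median -0.92). Sycp3, an axial element protein, stood at 132, 175, 437, 1065 and 2878 CPM. Meiob, which binds single-stranded DNA, was 18.5 CPM in members, 5.5 CPM in early KIT-positive and 45.5 CPM in STRA8-high cells. Hormad1, an axis protein, was 198 CPM in members, 74.1 CPM in early KIT-positive and 594 CPM in STRA8-high cells. Hfm1, a crossover helicase, had a ratio of -1.48 over STRA8-high cells.

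Many mitotic genes stood higher in members than in either neighbouring class. Of 30 genes of G2 and mitosis, 6 were at least 2-fold higher than in early KIT-positive cells and 0 lower (median 0.61), and 14 were higher and 0 lower than in STRA8-high cells (median 0.88). Plk1, a mitotic kinase, stood at 12.7, 23.7, 59.6, 8.94 and 6.88 CPM across the stages. Cdc20, which activates the anaphase-promoting complex, stood at 69.1, 88.3, 199, 78.8 and 115 CPM. Cenpa, the centromeric histone, was 305 CPM in members, 147 CPM in early KIT-positive and 103 CPM in STRA8-high cells. Per member thinned to 5000 UMIs, the list gave a median of 20 UMIs (10th to 90th percentile 10 to 43), against 14 (8 to 26) in early KIT-positive, 17 (10 to 28) in STRA8-high and 22 (14 to 32) in SYCP1-high cells. Per cell, the median of the list was thus higher in SYCP1-high cells than in members, and the ranges of all 4 stages overlapped. Not every mitotic gene peaked: Kif23, a cytokinesis kinesin, and Bub1, a spindle checkpoint kinase, had ratios of -0.80 and -0.82 over STRA8-high cells.

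The D cyclins differed in their stage. Of 22 measured genes of the list of G1 cyclins, kinases and inhibitors, 5 were at least 2-fold higher and 3 lower than in early KIT-positive cells (median 0.07). Against STRA8-high cells, 7 were higher and 2 lower (median 0.50). Over all measured genes, 3.78% were 2-fold higher and 17.4% lower than in early KIT-positive cells. Over STRA8-high cells these shares were 24.6% and 3.53%. The counts of 3 lower and 7 higher genes were near the matching shares. Across the stages Ccnd2 stood at 156, 132, 25.6, 24.6 and 8.7 CPM, and Ccnd3, cyclin D3, at 234, 122, 45.3, 19.7 and 9.9 CPM, while Ccnd1 peaked at 207 CPM in members. Cdk6, a partner kinase of the D cyclins, was 91.5 CPM in members, 284 CPM in early KIT-positive and 37.5 CPM in STRA8-high cells, although its ratio over STRA8-high cells was -0.50 when cells were thinned before the rule. E2f2, a transcription factor of the G1 to S step, stood at 2.45, 4.83, 27.4, 11.6 and 3.90 CPM. The CDK inhibitors Cdkn2c and Cdkn2d were highest in STRA8-high cells, and Cdkn2d was 52.6 CPM in members, 22.0 CPM in early KIT-positive and 101 CPM in STRA8-high cells.

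DNA replication differed less. Of 34 genes, 1 was at least 2-fold higher and 1 lower than in early KIT-positive cells (median 0.22), and likewise 1 and 1 than in STRA8-high cells (median -0.11). Rrm2, a ribonucleotide reductase subunit, was the one higher than in early KIT-positive cells, at 94.6 CPM in members against 30.4 CPM there and 199 CPM in STRA8-high cells. Per thinned cell the list gave a median of 19 UMIs in members, 16 in early KIT-positive and 21 in STRA8-high cells.

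**Figure D3:**
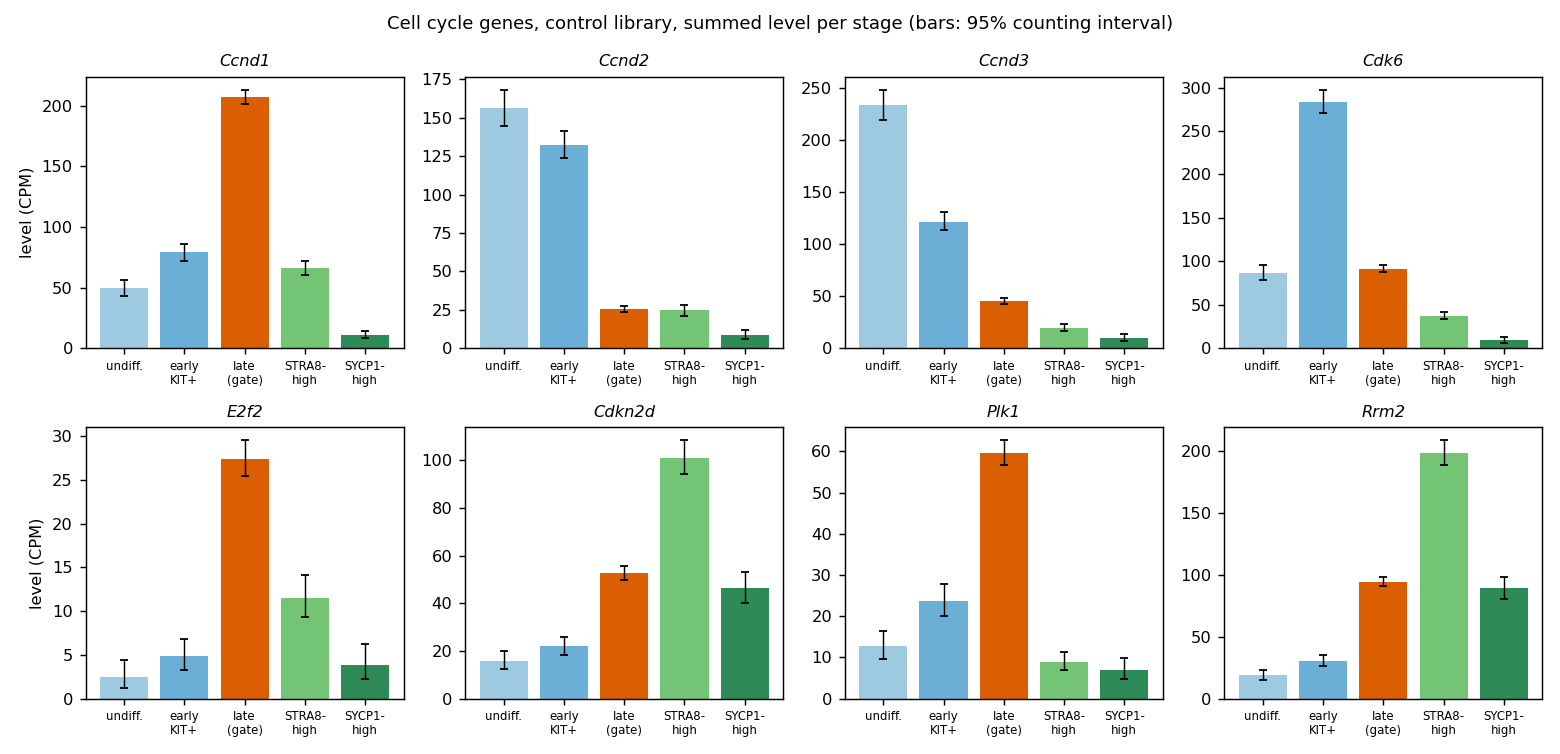
Levels in CPM (linear axes from 0) of 8 cell cycle genes over the summed cells of 5 control stages, with 95% Poisson intervals for counting error. Ccnd1, E2f2 and Plk1 are highest in members, Ccnd2 and Ccnd3 in undifferentiated cells, Cdk6 in early KIT-positive cells, and Cdkn2d and Rrm2 in STRA8-high cells.

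Among all genes, 110 of 15746 measured in both comparisons (0.699%) were at least 2-fold above both neighbours and 31 (0.197%) at least 2-fold below both, while 145 (0.921%) stepped up 2-fold on both sides and 1084 (6.88%) stepped down on both. The 15 named genes with the highest peaks were Eln, Zfp286os, Ccnd1, Plk1, E2f2, Ppp1r14a, Cdc20, Ptms, Ube2c, Cdca3, Cenpa, Ccna2, R3hdm4, Hist4h4 and Gli2, of which Plk1, Cdc20, Ube2c, Cdca3, Cenpa and Ccna2 act in mitosis. Zfp286os, an antisense transcript, stood at 6.69, 33.0, 117, 1.49 and 2.52 CPM, and whether strand was used in counting is not given in the sources used here. Gli2, a transcription factor of Hedgehog signalling, was 45.3 CPM in members, 20.6 CPM in early KIT-positive and 23.2 CPM in STRA8-high cells. Eln, elastin, was 44.5 CPM in members, but its ratio over early KIT-positive cells was -0.25 without the 75 cells rich in somatic markers, against 1.96 with them.

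Of the 10 named genes with the highest ratios over early KIT-positive cells, Hist1h2aa and Hist1h2ba, testis histones whose reads may be shared with near-identical copies, were among them beside Prss50, at ratios of 4.05 and 3.29. Ly6k, a GPI-anchored germ cell protein, had 3.21, with 220 CPM in members and 23.7 CPM in early KIT-positive cells. Of the 10 lowest, Cldn5, Emcn, Ptprb and Fli1 are endothelial genes, with ratios of -4.58, -4.24, -3.57 and -3.05. The endothelial list was also lower, with 5 of 6 genes at least 2-fold lower (median -2.12). Without cells rich in somatic markers in either class, its median was -0.95, and Ptprb and Fli1 had ratios of -2.13 and -2.05, while Cldn5 and Emcn had too few UMIs to be measured.

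Of the 10 highest over STRA8-high cells, Zfp286os had a ratio of 6.23 and Ndst3, a heparan sulphate enzyme, 4.48 (23.5 CPM in members, 0.993 CPM in STRA8-high cells). Cald1, Acta2 and Eln, genes of smooth muscle or matrix, had 3.04, 2.78 and 2.98, and 1.13, 0.08 and 0.56 without the 75 cells and their counterparts in the other class. The 20 immediate-early genes were all above 0 (median 1.37), with 16 at least 2-fold higher; without those cells the median was 0.61. Of the 10 lowest, Gzmc and Ccl4, a granzyme and a chemokine gene, stood at 0.119 and 0.832 CPM in members, and 22.9 and 33.8 CPM in STRA8-high cells. Pparg, a nuclear receptor, was 41.1 CPM in members, 10.6 CPM in early KIT-positive and 263 CPM in STRA8-high cells.

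Energy metabolism was described by a list for each of its main routes. Of 31 nuclear genes of oxidative phosphorylation, 30 had a ratio above 0 and 2 were at least 2-fold higher (median 0.45), with Ndufb5 at 1.36 and Ndufa1 at 1.27. Against STRA8-high cells the median was 0.04 and 0 were 2-fold away either way. Of 22 glycolysis and lactate genes, 4 were 2-fold lower and 0 higher than in early KIT-positive cells (median -0.55), led by Pfkp at -1.82, and 5 were higher and 0 lower than in STRA8-high cells (median 0.50), led by Hk2, hexokinase 2, at 1.70. Over all measured genes, 17.4% were 2-fold lower than in early KIT-positive cells and 24.6% higher than in STRA8-high cells. The glycolysis counts of 4 and 5 were near those shares.

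Of 15 genes of the 20S proteasome, none were 2-fold away from either neighbour (medians 0.20 and 0.28). Psma7 itself was 250, 242, 274, 147 and 28.9 CPM across the control stages. In piRNA biogenesis, 4 of 20 genes were 2-fold lower than in early KIT-positive cells and 0 higher (median -0.63), with Morc1, a silencer of transposons, at -1.73 and Piwil4 at -1.69. For DNA methylation, 3 of 15 were 2-fold lower and 0 higher (median -0.18). Of 19 retinoic acid genes, 1 was 2-fold higher and 3 lower (median -0.30). Cyp26a1, which degrades retinoic acid, and Rarb, a receptor that it induces, were the lowest at -2.75 and -2.21, and Ncoa1, a coactivator, was the highest at 1.41. Of 22 genes of p53 and apoptosis, 1 was 2-fold higher and 1 lower (median -0.06). Over all measured genes, 17.4% were 2-fold lower than in early KIT-positive cells. The piRNA, DNA methylation and retinoic acid counts of lower genes were near that share.

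The X chromosome gave a larger share of the RNA at later stages. With the genes of the rules left out, X-linked genes gave 2.29%, 2.30%, 2.48%, 2.81% and 2.88% of UMIs across the stages, and the exact binomial interval in members was 2.47% to 2.48%. Without the 10 X-linked genes with most UMIs the shares were 2.03%, 2.04%, 2.13%, 2.39% and 2.39%. Of 597 X-linked genes, 8.71% were at least 2-fold higher in members than in early KIT-positive cells, against 3.59% of 15704 autosomal genes. Of 588, 7.99% were at least 2-fold lower than in STRA8-high cells, against 3.37% of autosomal genes. Among 19 X-linked germ cell genes, 7 were 2-fold higher and 2 lower than in early KIT-positive cells (median 0.83). Taf7l, a germ cell TFIID subunit, stood at 214, 219, 389, 732 and 846 CPM, and Nxf2, an RNA export factor, at 136 CPM in members, 77.6 CPM in early KIT-positive and 252 CPM in STRA8-high cells. Usp26, a deubiquitinase, had ratios of 0.69 and 0.96 and so was higher in members than in either neighbour.

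Members differed among themselves by which gene of the rule was counted. The subgroups had median depths of 16688 UMIs (Dmrtb1 alone), 17260 UMIs (both) and 12984 UMIs (Esx1 alone). Kit stood at 188 CPM with Dmrtb1 alone, 131 CPM with both and 101 CPM with Esx1 alone, and Dmrt1 at 507, 371 and 265 CPM. Prss50 ran the other way at 11.2, 158 and 309 CPM, as did Meioc at 34.9, 222 and 321 CPM and Tex101 at 83.7, 342 and 694 CPM. The 95% counting intervals of the subgroups did not overlap for these 5 genes. Those intervals leave out the spread among cells, and the share of all genes without overlap is not given here. The Dmrtb1-alone cells thus had later-gene levels near those of early KIT-positive cells (Prss50 15.4, Meioc 41.0 and Tex101 108 CPM), and the Esx1-alone cells lay nearest to STRA8-high cells. Ccnd1 was highest with both, at 173, 247 and 129 CPM, and so was the G2 and mitosis list, at 3344, 5200 and 4263 CPM. Zbtb16 had no steady order, at 158, 62.4 and 78.6 CPM.

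**Figure D4:**
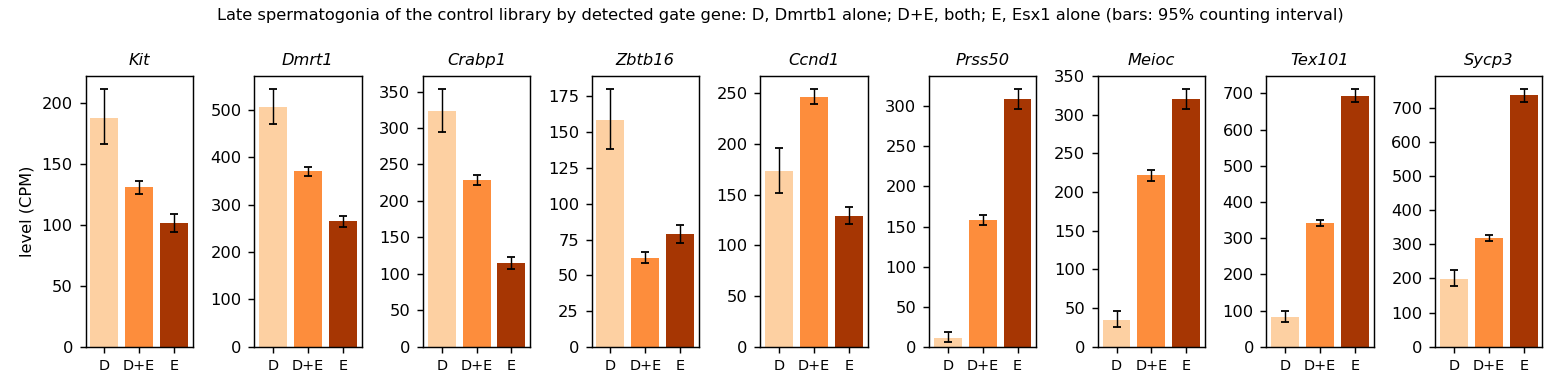
Levels in CPM (linear axes from 0) of 9 genes in the 75 control members with Dmrtb1 alone (D), the 790 with both (D+E) and the 474 with Esx1 alone (E), with 95% Poisson intervals for counting error. Kit, Dmrt1 and Crabp1 step down from left to right, Prss50, Meioc, Tex101 and Sycp3 step up, and Ccnd1 is highest in the middle.

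After thinning to 5000 UMIs, Prss50 was detected in 7.04% of 71 Dmrtb1-alone cells, 40.6% of 764 cells with both and 57.6% of 434 Esx1-alone cells. Kit was detected in 62.0%, 48.3% and 40.3%, and Ccnd1 in 63.4%, 67.4% and 44.0%. Unthinned shares, in the same order, were 14.7%, 64.3% and 73.4% for Prss50, 86.7%, 79.2% and 62.7% for Kit, and 90.7%, 90.6% and 71.9% for Ccnd1. The order of Prss50 and Kit was the same on both counts, and for Ccnd1 the first pair was level when unthinned.

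Grouped by the thinned count of Prss50, which the rule did not use, control members with 0 (704 cells), 1 or 2 (401) and 3 or more (164) had Kit at 154, 100 and 58.3 CPM. Tex101 stood at 173, 568 and 1220 CPM and Sycp3 at 216, 494 and 1237 CPM. Zfp286os, the antisense transcript that peaked in members, was at 174, 59.2 and 11.6 CPM, so it was concentrated in members with little Prss50. The stromal list ran the same way, at 757, 501 and 164 CPM, and its part in these levels was not tested.

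In the knockout library the 17 members did not bear the label out on Prss50 and Tex11, markers that the rule left free. Ccnd1 lay between the levels of control early KIT-positive cells and control members. The 17 are called cells of the Esx1 and Dmrtb1 rule. Of the 17, 4 held Esx1 alone, 7 both genes and 6 Dmrtb1 alone (35.3%, against 5.60% of control members). Control members with Dmrtb1 alone also had Prss50, Meioc and Tex101 near early KIT-positive levels, as given above. The part of this difference in make-up was not tested. Exactly 2 UMIs of the pair were counted in 12 of the 17 knockout members and 339 of the 1339 control members, and at least 5 in 0 and 619 (46.2%). The pair had a median of 0.883 per 10000 UMIs in knockout members and 3.11 in control members. Kit was detected in 16 of 17 and in 988 of 1339 (73.8%).

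Prss50 was counted once in the knockout members, at 1.96 CPM (0.0495 to 10.9), against 195 CPM (190 to 201) in control members and 15.4 CPM in control early KIT-positive cells. Tex11 stood at 139 CPM (108 to 175) in knockout members, 358 CPM in control members and 165 CPM in control early KIT-positive cells. Meioc was at 29.3 CPM (16.4 to 48.4), 241 and 41.0 CPM, and Tex101 at 108, 434 and 108 CPM, in the same order. The knockout members' levels of all 4 genes were thus nearer to those of control early KIT-positive cells than to those of control members. The knockout library's own early KIT-positive cells (30) had these 4 genes at 0, 128, 33.4 and 56.6 CPM. Ccnd1 was at 106 CPM (79.3 to 138), 207 and 79.0 CPM, and Kit at 131, 125 and 220 CPM.

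Control members as deep as the knockout median (126 cells with at least 34423 UMIs) had Prss50 at 222 CPM, Tex11 at 337 CPM and Meioc at 242 CPM. These levels were above those of the knockout members. The 126 control cells were chosen by depth only, not by their rate of Esx1 and Dmrtb1, and the part of depth was not tested. The sum of Prss50, Meioc, Tex101, Tex11 and Rhox13 per 10000 UMIs ran from 0 to 8.18 in knockout members (median 3.19) and from 0 to 55.0 in control members (median 10.8), and 824 control members (61.5%) were above the highest knockout member. In control early KIT-positive cells its median was 3.04.

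**Figure D5:**
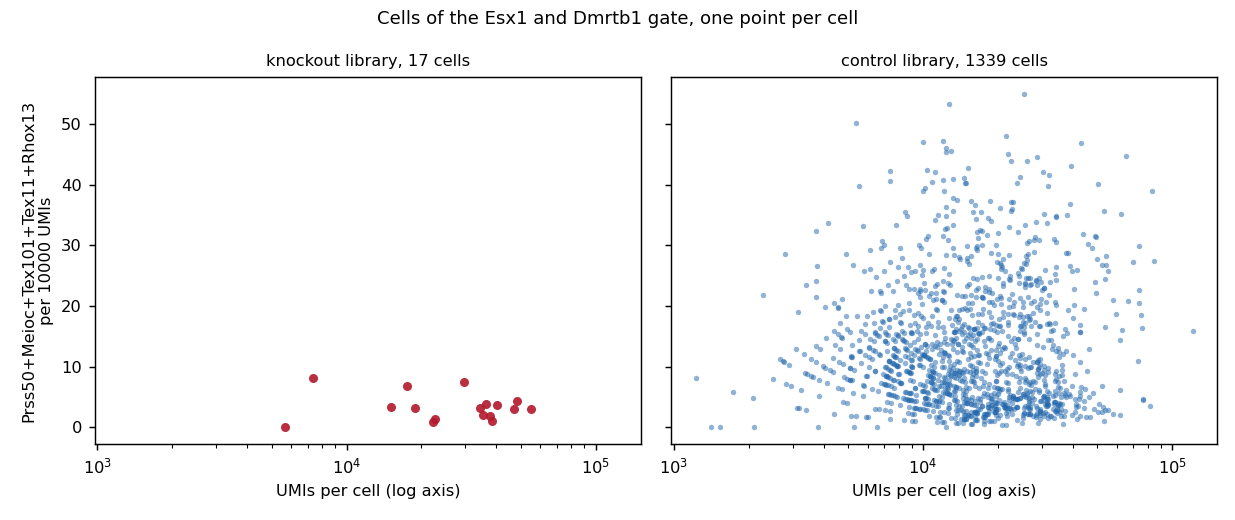
Summed Prss50, Meioc, Tex101, Tex11 and Rhox13 per 10000 UMIs against UMIs per cell (log axis), 1 point per cell of the Esx1 and Dmrtb1 rule, with 17 knockout cells on the left and 1339 control cells on the right. Knockout cells reach 8.18 and control cells 55.0 per 10000, at overlapping depths.

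Other genes of the knockout members were above both control classes: Ndst3 stood at 274 CPM, 23.5 CPM in control members and 25.1 CPM in control early KIT-positive cells, and Hnf4aos, also an antisense transcript, at 372, 101 and 81.0 CPM. Zfp286os was at 238 CPM (198 to 285), 117 and 33.0 CPM. Eda2r, a receptor gene and p53 target, was at 45.0 CPM, 4.79 and 8.41 CPM, and Ccng1, another p53 target, at 131, 66.6 and 38.0 CPM. In knockout early KIT-positive cells Ndst3 was at 55.2 CPM, Hnf4aos at 100.2 CPM, Zfp286os at 46.5 CPM, Eda2r at 33.4 CPM and Ccng1 at 78.4 CPM. The whole list of 23 genes of p53 and apoptosis summed to 1418 CPM in knockout members, 1149 CPM in control members and 1183 CPM in control early KIT-positive cells. In knockout early KIT-positive and undifferentiated cells it summed to 1394 and 1436 CPM. Fas, a gene of that list, was at 0 in knockout members, and how many of its genes were higher or lower there is not given here. Undifferentiated genes summed to 809 CPM in knockout members, 1918 CPM in knockout early KIT-positive cells, 385 CPM in control members and 862 CPM in control early KIT-positive cells. Stromal and myoid lists summed to 117 and 17.6 CPM in knockout members, against 595 and 132 CPM in control members, and Sertoli and endothelial lists to 528 and 82.1 CPM, against 372 and 49.7 CPM. Of those lists, Actg2 and Tie1 were at 0 in knockout members. The part of these lists in the differences was not tested. With 17 cells from 1 library, these values describe those cells.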

How the data were processed

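The authors deposited unfiltered matrices of raw UMI counts per gene and barcode, 1 library per genotype. Per the file headers, Cell Ranger 7.1.0 produced them, and the submitters' processing notes give mm10 as the build. Whether intronic reads were counted is not given in the sources used here. Totals were 112746953 UMIs (knockout) and 146528736 UMIs (control). Cells passed 1000 UMIs, 500 genes and at most 20% mitochondrial UMIs. Doublets were scored with Scrublet (scanpy 1.11.5) and kept; its automatic threshold marked 1 knockout cell, so the control's was used for both, marking 2.45% of knockout and 4.36% of control cells. UMIs were summed per class into CPM with exact Poisson intervals, log2 ratios have 0.5 added to each count and exact conditional intervals, and shares have Clopper-Pearson intervals (scipy 1.17.1). Genes needed 30 UMIs over the 2 classes compared; at least 2-fold is a description, since no test was possible. The intervals were tested on simulated Poisson counts. Those hold no spread among cells or libraries, so the test checks only the calculation. Members, lists and rules were chosen with earlier results of these data known. Genes named are those of the rules, the markers, the 2 highest and lowest of each list, the 10 highest and lowest ratios and 15 peaks with at least 20 CPM; mitochondrial, ribosomal, haemoglobin and unnamed genes were left out of rankings. Sall4, Tex101, Sycp3, Ccnd3, Cdkn2d, Gm4969 and Crabp1 were named after their values were seen. List sums for knockout members were planned only for at least 20 members, and are given here for fewer, as a description. Symbols matched 32158 of 32285 genes in GENCODE M21. Alternatives (13 planned, 1 added after seeing the data) changed cell and gene minimums, limits, doublets, depth, scaling and free RNA.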

Additional observations from a re-analysis of the deposited data

How the results depend on the processing

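With 1 library per genotype, no result has replicate error, and depth limits the calling of members. No paired analysis was possible because each genotype has 1 library. With at least 3 UMIs of Esx1 and Dmrtb1, the knockout library had 5 members (1.51% of germ cells) and the control share was 27.7%; thinned to 5000 UMIs, the libraries had 2 (0.885%) and 553 (19.1%). Genes at least 2-fold lower than in early KIT-positive cells numbered 1085 after thinning and 1647 at 100 UMIs per gene, against 2849. Genes higher than in STRA8-high cells numbered 846 after thinning, against 3889. Fewer genes could be measured in these settings. Of the named ratios, 283 could be given after thinning and 351 at 100 UMIs per gene, against 394 with centring. The shares of measured genes are not given here, so the lower counts alone do not show that fewer genes differed. Centred on the median gene, 1001 were higher than in early KIT-positive cells, and 2309 higher and 1439 lower than in STRA8-high cells. Without the top 10 genes, X-linked shares were 2.03%, 2.04%, 2.13%, 2.39% and 2.39%; as means per cell they were 2.27% in early KIT-positive, 2.46% in member and 2.77% in STRA8-high cells. Unthinned shares in Dmrtb1-alone, both and Esx1-alone members were 90.7%, 90.6% and 71.9% for Ccnd1 and 86.7%, 79.2% and 62.7% for Kit, and for Prss50 64.3% and 73.4% in the last pair. Thinning before the rule reversed ratios over STRA8-high cells, to -0.13 for Acta2 and the myoid median, -0.52 for Col3a1 and the stromal median, -0.50 for Cdk6, -1.06 for Col1a1, -0.44 for Col1a2, -0.56 for Dcn and Fabp3, -0.62 for Eln, -0.53 for Gata4 and -0.61 for Pecam1. Per-cell means turned Cldn5 to -0.58 there. Without cells rich in somatic markers, an alternative chosen after seeing the data, Dcn became -0.016 and Myl9 -0.084 over STRA8-high cells, and Eln -0.25 over early KIT-positive cells. Of the named ratios that each could give, thinning before the rule kept the sign of 249 of 283, centring 363 of 394 and the limit on somatic markers 346 of 360. Thinning also kept 92 of 129 ratios of at least 2-fold and 2 of 7 list medians of that size. The limit on somatic markers kept 149 of 170 such ratios and 3 of 10 such list medians. The cause of these changes was not tested. Thinning and the gene minimum also leave smaller cell or gene numbers.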
